A study of Mus musculus with 96 samples.

Results

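The CCAAT/enhancer-binding proteins (C/EBPs) were followed in single haematopoietic cells of the mouse embryo. The members were the rows of the deposited count table whose gene symbol was Cebpa, Cebpb, Cebpd, Cebpg or Cebpe, which gave 5 of 19836 genes. The family was chosen on an earlier look at the same counts, by the share of cells with Cebpb and its CPM in the 4 groups, which were highest in the aorta-gonad-mesonephros region (AGM). These levels are therefore a description and carry no test. The study sorted 96 single cells, 1 to a well, from embryos of strain C57BL/6, and called the cells of the earliest embryonic day (E11.5) pre-HSCs and those of E12.5 and E14.5 HSCs (haematopoietic stem cells). The groups were 48 cells of the AGM at E11.5 and 16 cells of the yolk sac at E11.5, both sorted as Ter119-CD11b-CD144+c-kit+EPCR+. There were 16 cells of the fetal liver at E12.5, sorted as Ter119-Sca-1+c-kit+EPCR+, and 16 of the fetal liver at E14.5, sorted as Ter119-Sca-1+c-kit+CD48-CD150+. No allele or treatment was given for any group, and no animal or litter was named, so each group counts as 1 sample and cells of a group are not replicates of it. No test between groups was possible. Tissue, day and gate changed together between the AGM and the E12.5 liver, and day and gate between the livers, so their effects cannot be told apart.

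C/EBPs are basic leucine zipper (bZIP) transcription factors that bind DNA as dimers, with themselves, with each other or with other bZIP proteins. C/EBPα drives myeloid commitment and C/EBPε the late steps of granulocyte maturation. C/EBPβ and C/EBPδ are induced by cytokines, inflammation and stress, and C/EBPβ serves granulocyte production when demand is high. C/EBPγ lacks an activation domain and acts through partners such as ATF4 in the response to amino acid shortage.

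Positions are from GENCODE M21 (build GRCm38), in which Cebpa, Cebpb and Cebpd are genes of 1 exon, Cebpe has 2 exons and Cebpg 3. Cebpb (ENSMUSG00000056501.3) lies at chr2:167688915-167690418, plus strand. Cebpd (ENSMUSG00000071637.5) lies at chr16:15887286-15891031, plus strand, and Cebpe (ENSMUSG00000052435.6) at chr14:54710360-54712174, minus strand. Cebpa (ENSMUSG00000034957.10) at chr7:35119293-35121928, plus strand, and Cebpg (ENSMUSG00000056216.9) at chr7:35046422-35056573, minus strand, are neighbours. Cebpb shared 312 exonic bases, 20.7% of its exons, with Tmem189 on the opposite strand, and Cebpd shared 562 bases with Spidr. The counting is not stated to use strand, so reads from the shared bases cannot be assigned to a gene of either pair. Tmem189 itself was at 41.3 CPM (reads per 1000000 reads, here summed over the cells of a group) in the AGM, 33.3 in the yolk sac, 29.4 in the E12.5 liver and 32.5 in the E14.5 liver, a narrower span than that of Cebpb below. Spidr varied more, at 45.3, 22.9, 12.4 and 27.1 CPM in the same order. The part of shared bases in the levels of Cebpb and Cebpd was not tested.

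RefSeq promoters (GRCm38.p6, from 250 bases before to 50 after the annotated start) were found for 3 of the 5 members; Cebpd and Cebpe had no entry. The promoters of Cebpb, whose level differed most between groups, and of Cebpg, whose summed level spanned the least of the 3 widely read members, are shown for comparison, 5′ to 3′ on the gene's strand. Capitals mark every match, on either strand, to the 5-base core of the cyclic AMP response element, the TATA box or the CCAAT box.

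Cebpb, chr2:167688665-167688964, plus strand: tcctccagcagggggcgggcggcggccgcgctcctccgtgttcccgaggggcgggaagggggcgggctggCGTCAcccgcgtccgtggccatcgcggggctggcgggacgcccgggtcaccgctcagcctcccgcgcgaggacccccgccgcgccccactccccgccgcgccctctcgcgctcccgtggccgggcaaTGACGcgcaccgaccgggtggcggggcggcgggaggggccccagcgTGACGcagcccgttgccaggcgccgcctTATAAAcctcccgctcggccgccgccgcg

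Cebpg, chr7:35056517-35056816, minus strand: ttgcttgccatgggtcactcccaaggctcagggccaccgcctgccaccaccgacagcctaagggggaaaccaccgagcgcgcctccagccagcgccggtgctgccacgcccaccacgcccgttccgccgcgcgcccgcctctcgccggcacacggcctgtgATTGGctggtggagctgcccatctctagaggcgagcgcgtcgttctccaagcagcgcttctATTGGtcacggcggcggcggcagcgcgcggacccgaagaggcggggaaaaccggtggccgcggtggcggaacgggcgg

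The Cebpb promoter held 3 cores TGACG of the cyclic AMP response element, which begin at positions -180 (as CGTCA), -53 and -7 from the annotated start, and a TATA box, TATAAA, at position 22 after it. The core was present in 20.8% and the TATA box in 13.6% of the 32851 promoters in the table. The Cebpg promoter held 2 CCAAT boxes, both on the opposite strand, at -89 and -28, and CCAAT was present in 37.4% of promoters. GC content was 80.7% for Cebpb and 71.7% for Cebpg, against a median of 52.7% over all promoters. The C/EBP-type site TTGCNNAA, present in 10.8% of promoters, and the STAT-type site TTCNNNGAA, present in 8.30%, had no match in either window. A match is a string of letters and not a measured site.

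Each cell was sequenced to between 250235 and 1926882 reads, with a median of 5522.5 genes per cell in the AGM, 5349.5 in the yolk sac, 4036 in the E12.5 liver and 4839 in the E14.5 liver. Kit, the gene of the c-kit receptor used in every gate, was read in 43 of 48, 12 of 16, 12 of 16 and 14 of 16 cells, in that order. Procr, the gene of EPCR, was read in 41 of 48 AGM cells, but in 6 of 16 yolk sac cells and 8 of 16 E12.5 liver cells sorted on the same protein. Cdh5, the gene of CD144, was read in 45 of 48 AGM cells and 7 of 16 yolk sac cells. Of 16 E14.5 liver cells, 4 (cells 3, 8, 13 and 16) held between 39185 and 189614 CPM of 10 erythroid marker genes, where the median cell of that group held 105.9. E12.5 liver cell 8 had 1011 genes and 26767 CPM of macrophage markers. It held no C/EBP read. Levels and shares of the members without these 5 cells, chosen after seeing the data, are given beside those with them, and values of the gene lists where leaving them out moved a value by over 1.5 times.

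Cebpb was the most widely read member in the AGM. In the AGM 46 of 48 cells had reads (95.8%, exact 95% interval 85.7% to 99.5%), and the yolk sac had 8 of 16 (50%, 24.7% to 75.3%). The liver had Cebpb in 9 of 16 cells at E12.5 (56.25%, 29.9% to 80.2%) and in 13 of 16 at E14.5 (81.25%, 54.4% to 96.0%). AGM cells ranged from 0 to 1372 CPM, with a median of 122.2, and 2 cells (3 and 47) held no read. Yolk sac cells ranged from 0 to 101.9 CPM with a median of 3.15, so the highest yolk sac cell lay below the median AGM cell. E12.5 liver cells ranged from 0 to 108.0 CPM with a median of 4.38, and E14.5 liver cells from 0 to 227.1 CPM with a median of 17.3. Only cell 9 of the E14.5 liver lay above the AGM median. The other groups thus overlapped the lower part of the AGM cells, and that 1 cell the upper part, as the plot of CPM by cell shows.

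**Figure D1:**
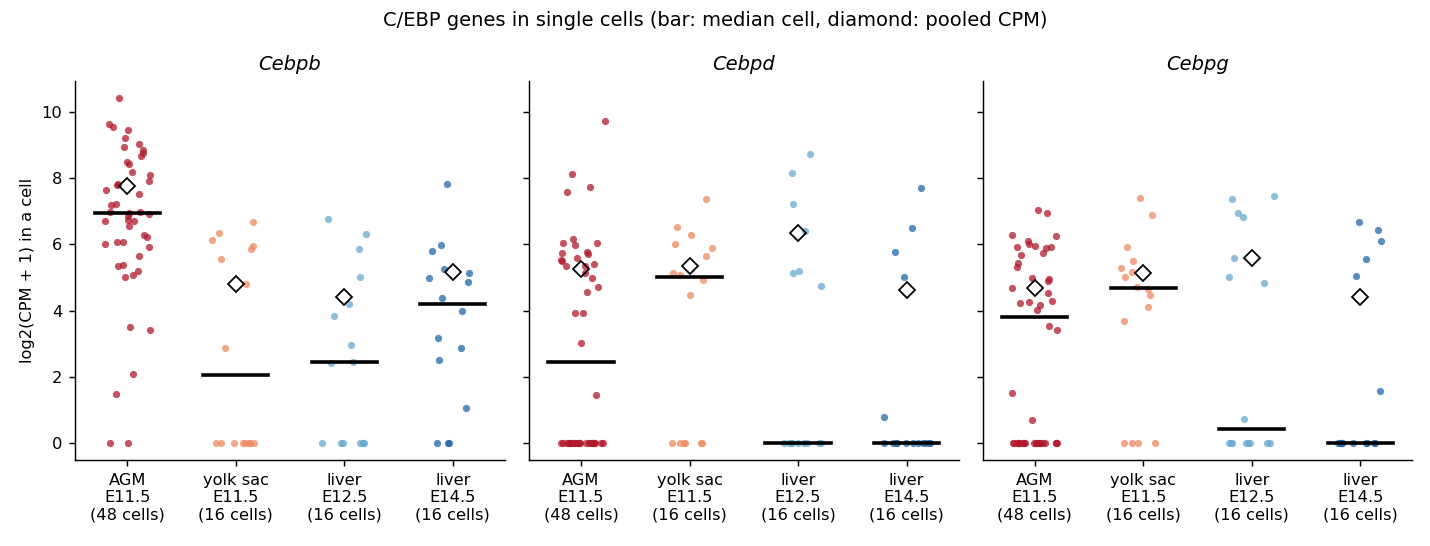
Level of Cebpb, Cebpd and Cebpg in each of the 96 cells as log2(CPM + 1) by group, with the median cell (bar) and the CPM of the summed reads (diamond). For Cebpb the AGM median of 122.2 CPM lies above every yolk sac and E12.5 liver cell, whereas the clouds of Cebpd and Cebpg overlap across the groups.

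Summed over the cells of a group, Cebpb stood at 214.8 CPM in the AGM (95% counting interval 211.1 to 218.5), 26.9 in the yolk sac (24.8 to 29.2), 20.3 in the E12.5 liver (18.3 to 22.4) and 34.6 in the E14.5 liver (32.1 to 37.2). The intervals cover counting error only, because reads from PCR that carry no molecular identifier are not independent molecules. The order was AGM, E14.5 liver, yolk sac and E12.5 liver, but 52.7% of the E14.5 reads came from cell 9, and without it that group stood at 17.8 CPM. Without that cell the E14.5 liver was the lowest group, so the lower 3 groups have no firm order. The yolk sac was 7.97-fold below the AGM, a log2 ratio (of pooled CPM with 1 CPM added) of -2.95, which stayed between -3.23 and -2.83 whichever cell was left out. The E12.5 liver was 10.6-fold below the AGM, a log2 ratio of -3.34, or -3.82 to -3.23 with a cell left out.

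Calls at 2-fold were made among 15239 genes with at least 30 reads. Of the members, 4 reached this number, but Cebpe did so through the AGM alone and could count only as lower than it, which leaves 3 that could be counted either way. Of these 3, 1 (Cebpb) was at least 2-fold lower in the yolk sac than in the AGM, where 21% of all genes were, and 0 were higher by that margin, where 8.61% were. In the E12.5 liver 1 member was lower than in the AGM (Cebpb; 26% of all genes) and 1 higher (Cebpd; 15.6%). Both comparisons share the AGM cells, and the Cebpb counts describe the values on which the family was chosen.

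The Cebpb difference was as large with AGM cells 1 to 16 as with cells 17 to 48. Both parts are cells on which the family was chosen, set against the same yolk sac cells, so this describes those values and is no replication. The first part gave 214.4 CPM and the second 214.9 CPM, and the ratio to the yolk sac was -2.95 for both. The second part was itself uneven, with cells 17 to 32 at 266.1 CPM and cells 33 to 48 at 153.1 CPM. It was also present at equal depth: with each cell thinned to 690000 reads, which left 43, 16, 14 and 14 cells, the shares of cells with Cebpb were 95.3% in the AGM, 50% in the yolk sac, 64.3% in the E12.5 liver and 71.4% in the E14.5 liver. At a minimum of 10 CPM the shares were 89.6%, 43.75%, 37.5% and 56.25%.

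**Figure D2:**
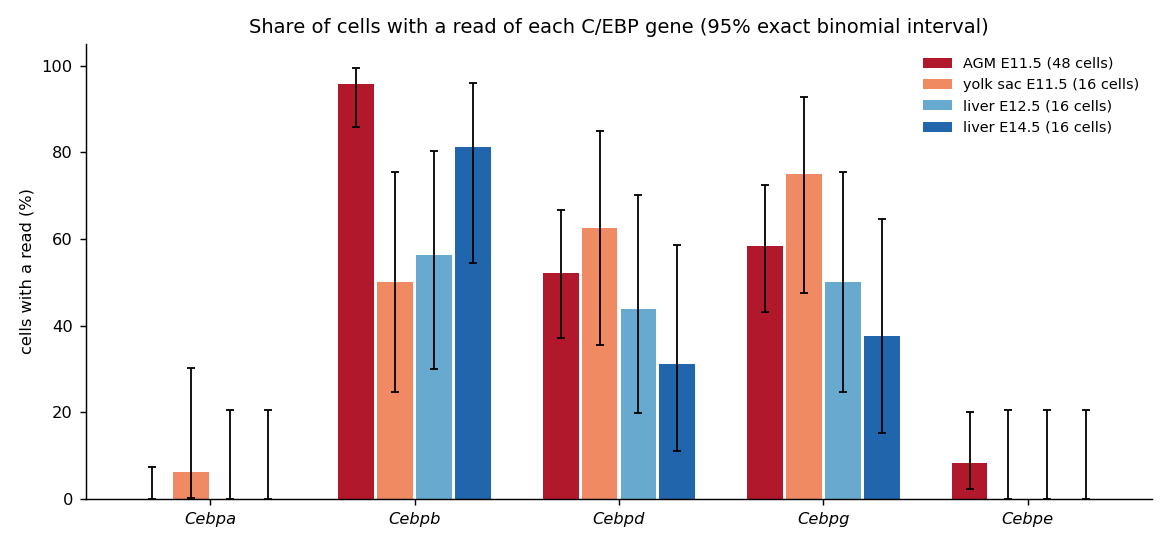
Percent of cells with at least 1 read of each member, by group, with exact 95% binomial intervals over cells. Cebpb reached 95.8% in the AGM against 50% in the yolk sac, while Cebpa and Cebpe were read in few or no cells.

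Among E14.5 liver cells, Cebpb had almost no reads in those with high erythroid marker levels. Cells 8, 13 and 16 held 0 Cebpb reads and cell 3 held 1, and these were the 4 erythroid-high cells named above. All of the other 12 cells had Cebpb, at 43.8 CPM in sum, and the E12.5 liver without cell 8 had it in 60% of cells at 20.5 CPM. Without the 5 cells that stood apart, Cebpb was at a log2 ratio of 1.06 in the E14.5 against the E12.5 liver, compared with 0.74 (counting interval 0.57 to 0.92) with all cells. Leaving out E14.5 cell 9 gave -0.18 and leaving out E12.5 cell 7 gave 1.22, so the direction between the livers rested on single cells.

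Cebpd, the cytokine- and stress-induced relative of Cebpb, had another order of groups. Reads of Cebpd came from 25 of 48 cells in the AGM (52.1%), 10 of 16 in the yolk sac (62.5%), 7 of 16 in the E12.5 liver (43.75%) and 5 of 16 in the E14.5 liver (31.25%). AGM cells ranged from 0 to 848.6 CPM with a median of 4.40, yolk sac cells from 0 to 163.9 with a median of 31.1. Most E12.5 liver cells were at 0 and the highest, cell 11, at 428.6 CPM, and most E14.5 cells were at 0 and the highest, cell 15, at 207.4 CPM. In sum Cebpd stood at 37.04 CPM in the AGM, 39.8 in the yolk sac, 79.6 in the E12.5 liver and 23.5 in the E14.5 liver. The log2 ratio of yolk sac to AGM was 0.10, with a counting interval of -0.01 to 0.21 that includes 0. The E12.5 value rested on cell 11, which held 48.5% of the reads. Without it the group stood at 45.1 CPM, and the ratio to the AGM changed from 1.08 to 0.28. This ratio was also under 2-fold without E12.5 cell 7 or cell 15. Cell 15 held 62.8% of the E14.5 reads, and without it that group stood at 9.41 CPM. Without the 5 cells that stood apart, Cebpd was read in 46.7% of cells at 80.7 CPM in the E12.5 liver and in 41.7% at 29.8 CPM in the E14.5 liver.

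Cebpg, the partner of ATF4, had reads in 28 of 48 cells in the AGM (58.3%), 12 of 16 in the yolk sac (75%), 8 of 16 in the E12.5 liver (50%) and 6 of 16 in the E14.5 liver (37.5%). The highest cell was at 131.6 CPM in the AGM, 167.1 in the yolk sac, 175.5 in the E12.5 liver and 100.5 in the E14.5 liver, and every group had cells at 0. Summed levels were 24.8, 33.9, 47.2 and 20.1 CPM in the same order. The log2 ratio to the AGM was 0.44 in the yolk sac and 0.90 in the E12.5 liver, neither past 2-fold. It was 0.06 in the yolk sac without yolk sac cell 13, and 0.50 in the E12.5 liver without E12.5 cell 11. Without the 5 cells that stood apart, Cebpg was read in 53.3% of cells at 47.8 CPM in the E12.5 liver and in 33.3% at 23.5 CPM in the E14.5 liver.

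Between the livers, 2 of the 3 members with reads in both were at least 2-fold lower at E14.5, Cebpd with a log2 ratio of -1.72 and Cebpg with -1.19, where 18.2% of all genes were. None was higher, where 18.7% of all genes were. Without E12.5 cell 11, a single cell with 736 Cebpd and 285 Cebpg reads, the ratios were -0.91 and -0.79 and neither was past 2-fold. Without the 5 cells that stood apart they were -1.41 and -0.99.

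**Figure D3:**
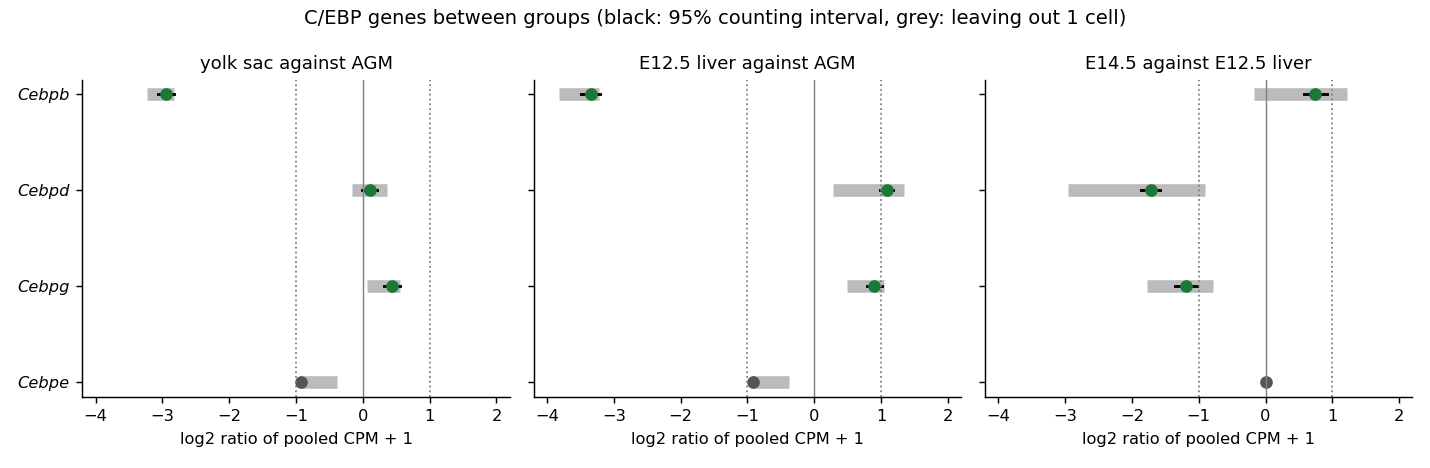
Log2 ratio of pooled CPM + 1 for each member with at least 30 reads in the 3 comparisons, with the 95% counting interval (black, none drawn for Cebpe) and the range when any 1 cell is left out (grey); dotted lines mark 2-fold. Cebpb lies at -2.95 and -3.34 against the AGM with narrow ranges, while the grey ranges of Cebpd and Cebpg reach across the 2-fold line in the livers.

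Cebpa and Cebpe, the members tied to granulocyte fate, were close to absent. Cebpa had 3 reads in all, in yolk sac cell 2 (2.37 CPM), and 0 of 48 AGM cells, 0 of 16 E12.5 and 0 of 16 E14.5 liver cells had a read, which allows shares of up to 6.25% in the AGM and 18.75% in each liver group by the limit of 3 cells (the exact 95% intervals reach 7.40% and 20.6%). Cebpe had 54 reads in 4 AGM cells (cell 5 with 4, cell 7 with 2, cell 19 with 36 and cell 40 with 12), a sum of 0.896 CPM, and 0 reads in the other groups. With 3 reads over a group as the floor, the AGM was 6.66-fold above the floor of the yolk sac and 5.69-fold above that of the E12.5 liver. However, cell 19 held 66.7% of the reads. Without it the AGM stood at 0.304 CPM, beside floors of 0.134 CPM in the yolk sac and 0.157 in the E12.5 liver. The exact 95% interval for 0 of 16 cells reaches 20.6%, above the AGM share of 8.33%. All 4 of these AGM cells also held Cebpb, at 39.9, 436.6, 751.6 and 200.6 CPM in the order given.

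Per kilobase of annotated exon, which allows levels of different genes to be compared, Cebpb stood at 142.8 CPM in the AGM, Cebpd at 9.89 and Cebpg at 4.41. In the yolk sac these levels were 17.9, 10.6 and 6.04, in the E12.5 liver 13.5, 21.2 and 8.39, and in the E14.5 liver 22.997, 6.28 and 3.58. On this scale Cebpb made up 90.5% of the family's reads in the AGM, 51.7% in the yolk sac, 31.2% in the E12.5 liver and 70.0% in the E14.5 liver. Cell by cell, Cebpb was above Cebpd in 44 of 48 AGM cells, and the counts were 6 of 16 for the yolk sac, 7 of 16 for the E12.5 liver and 10 of 16 for the E14.5 liver. Cebpb was below Cebpd in 2, 6, 3 and 3 cells in the same order, and 2, 4, 6 and 3 cells were at 0 for both. Cell 11 set the order of the sums in the E12.5 liver: without it Cebpb stood at 13.7 CPM per kilobase and Cebpd at 12.03, or 42.7% and 37.6% of the family. In the E14.5 liver Cebpb made up 56.4% without cell 9 and 78.9% without cell 15. Annotated exon lengths include untranslated regions that a cell may not use.

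**Figure D4:**
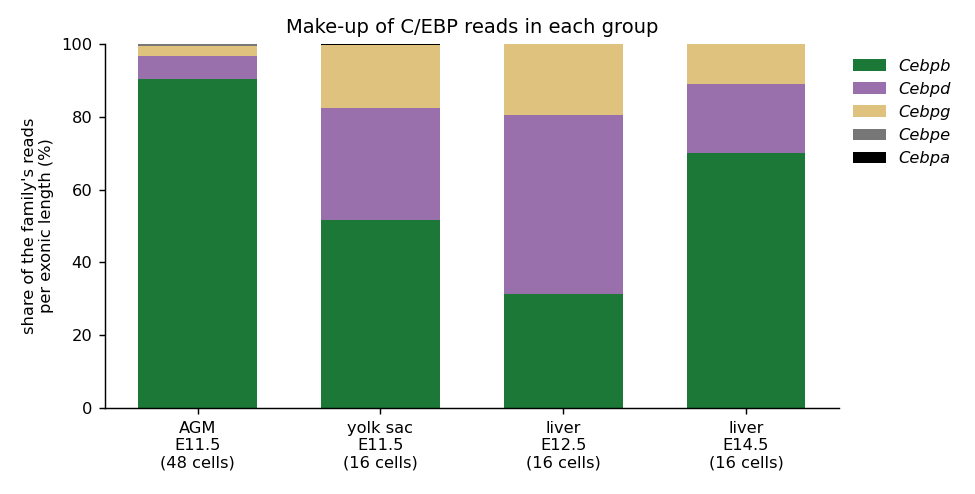
Percent of C/EBP reads per exonic length carried by each member in each group (bars sum to 100%). Cebpb made up 90.5% in the AGM and 31.2% in the E12.5 liver, where Cebpd made up 49.3%, or 37.6% without cell 11.

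Cebpb and Cebpd were read in the same cell in 52.1% of AGM cells, where the product of their shares is 49.9%, and in 37.5% of yolk sac cells, where it is 31.25%. Since 46 of 48 AGM cells had Cebpb, nearly any cell with Cebpd there had both. Cells with Cebpd or Cebpg but no Cebpb numbered 1 of 48 in the AGM, 7 of 16 in the yolk sac, 3 of 16 in the E12.5 liver and 1 of 16 in the E14.5 liver. Cells with Cebpb alone numbered 12, 1, 2 and 4 in the same order, and cells with all of Cebpb, Cebpd and Cebpg numbered 18, 5, 4 and 1. Cells with none of them numbered 1, 1, 4 and 2. The 4 such cells of the E12.5 liver, with 1011 to 3255 genes, were the 4 with fewest genes in that group, and the part of depth in their lack of reads was not tested.

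Within the AGM, detection of Cebpd and Cebpg moved with the cell number in the labels, whereas that of Cebpb did not. Cells 1 to 16 had Cebpd in 75% and Cebpg in 81.25%, and cells 17 to 48 in 40.6% and 46.9%. Cebpb was read in 93.75% and 96.9%. By runs of 16 cells, Cebpd was read in 75%, 56.25% and 25%, and Cebpg in 81.25%, 56.25% and 37.5%. The fall was not particular to these members. Tmem189, Spidr and Ddit3 were read in 81.25%, 56.25% and 68.75% of the first 16 cells and in 56.25%, 34.4% and 53.1% of the later ones. Cebpz did not fall (93.75% and 96.9%). The share of all genes that fell was not computed. The median number of genes per cell was 6572 in the first 16 cells and 5148 in the others. With cells thinned to 690000 reads the shares were 66.7% and 38.7% for Cebpd and 75% and 48.4% for Cebpg. The labels do not call the number a batch, and its part in these values was not tested. Against the later AGM cells alone, Cebpg in the E12.5 liver was at a log2 ratio of 1.27, past 2-fold, and against the first 16 alone at 0.27. In the yolk sac Cebpg was at 0.81 against the later cells and -0.19 against the first 16, and Cebpd at 0.16 and -0.03. The direction of both in the yolk sac thus turned with the AGM cells used. Under the mean CPM of the cells Cebpd there was at -0.33.

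Immediate-early genes are switched on within minutes by growth factors and stress. The list held 16 genes classed so, Cebpb not included. Of these, 5 were at least 2-fold lower than in the AGM (Fosb, Jund, Ier3, Klf2 and Maff) in the yolk sac and 1 higher (Egr1), or 31.2% and 6.25% of the list against 21% and 8.61% of all genes. The median log2 ratio was -0.46 against -0.20 over all genes. Of these calls only those of Fosb and Maff stayed past 2-fold whichever cell was left out. Jund was just under 2-fold without yolk sac cell 6, and Ier3 was at -0.90 without AGM cell 23, Klf2 at -0.88 without AGM cell 3 and Egr1, a zinc finger factor, at 0.96 without yolk sac cell 4. Their summed level was 2980 CPM in the AGM and 2723 in the yolk sac, with a median of 12 of the 16 genes read per cell in both groups. Ier2 alone held 815.3 CPM of that sum in the AGM and 875.3 in the yolk sac. Jund was read in 48 of 48 AGM, 16 of 16 yolk sac and 16 of 16 E14.5 liver cells, so its place on a list of rapidly induced genes is open. The part of immediate-early expression in the Cebpb difference was not tested. In the E12.5 liver, by contrast, 14 of 16 were lower than in the AGM (87.5%, against 26% of all genes) and 0 higher (15.6% of all genes), and all 14 stayed so with any 1 cell left out. That comparison had a median log2 ratio of -2.37 (-2.34 with genes at 0 set to the floor) against -0.20 over all genes, and the summed levels were 650.3 CPM at E12.5 and 736.1 at E14.5. Nr4a1, an orphan nuclear receptor, stood at 372.6 CPM in the AGM, 365.1 in the yolk sac and 5.14 in the E12.5 liver. Fosb, a bZIP partner of JUN, stood at 55.0, 19.4 and 0.105 CPM, and Btg2, a brake on proliferation, at 94.0, 115.0 and 1.42 CPM.

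**Figure D5:**
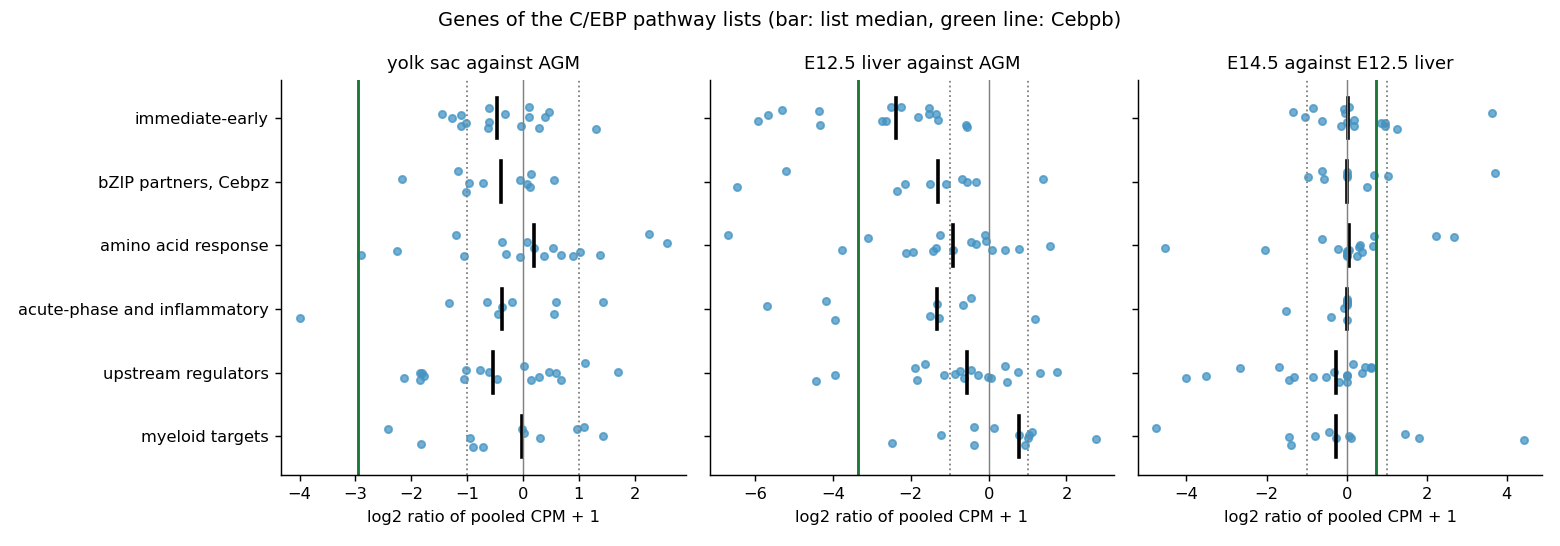
Log2 ratio of pooled CPM + 1 for each gene with at least 30 reads in 6 lists tied to C/EBP function, with list medians (bars) and the value of Cebpb (green line); dotted lines mark 2-fold. In the yolk sac Cebpb lies at -2.95, beyond the immediate-early median of -0.46, and in the E12.5 liver it lies at -3.34, with that list's median at -2.37.

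The list of bZIP partners also held Cebpz, a CCAAT-binding factor without a bZIP domain, which is left out of these counts and stood at 85.8 CPM in the AGM, 93.8 in the yolk sac, 29.8 in the E12.5 liver and 29.9 in the E14.5 liver. Of the 9 others, 3 (33.3%, against 21% of all genes) were at least 2-fold lower in the yolk sac than in the AGM (Atf5, Jun and Nfil3) and 0 higher (8.61% of all genes). With 1 AGM cell left out, Atf5 was at -0.89 (cell 41) and Jun at -0.85 (cell 14), under 2-fold. Nfil3, a repressor that binds C/EBP-like sites, stood at 38.04 CPM in the AGM and 7.71 in the yolk sac. In the E12.5 liver 5 of 9 were lower (55.6%, against 26% of all genes) and 1 (Batf) higher (11.1%, against 15.6%), with a median of -1.09 (-0.88 with genes at 0 set to the floor). With 1 cell left out, Batf3 was at -0.69 (AGM cell 18) and Batf at 0.86 (E12.5 cell 7), under 2-fold. Atf3, a stress-induced repressor, stood at 87.0 CPM in the AGM, in 25 of 48 cells, and at 0 in the E12.5 liver. The AGM value was 553 times the floor of 3 reads, which takes reads as independent and is no lower limit over cells. Atf4, which binds C/EBP-ATF composite elements, stood at 368.5 CPM in the AGM, 355.4 in the yolk sac, 82.8 in the E12.5 liver and 171.8 in the E14.5 liver. Ddit3, a C/EBP-like protein that blocks its partners, stood at 67.2, 40.4, 45.03 and 29.1 CPM in the same order. Between the livers 2 were higher at E14.5 (Atf4 and Nfil3; 22.2%, against 18.7% of all genes) and 0 lower (18.2% of all genes). Atf4 was at a log2 ratio of 0.85 without E14.5 cell 13, and only 1 of the 2 was higher without the 5 cells that stood apart.

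The list of upstream regulators joined cytokine receptors, JAK-STAT and NF-κB genes, CREM and the Trib proteins that direct C/EBP breakdown. Genes that limit signalling or direct C/EBP breakdown (Socs3 and the Trib genes) were counted with the others, so the counts give no direction of input. Of 18 genes, 7 were lower in the yolk sac than in the AGM (38.9%, against 21% of all genes) and 2 higher (11.1%, against 8.61%). The median was -0.54, where all genes had -0.20. The 7 were Lifr, Stat5a, Socs3, Crem, Trib1, Trib2 and Fbxw7. With any 1 cell left out, 5 of the 7 and 0 of the 2 stayed past 2-fold; Socs3 (-0.35) was under it without AGM cell 23, Fbxw7 (-0.84) without AGM cell 18, and Stat5b (0.27) and Nfkb1 (0.86) without yolk sac cell 10. In the E12.5 liver 6 were lower (33.3%, against 26%) and 2 higher (11.1%, against 15.6%), also with a median of -0.54, and all but Il6st (-0.81 without AGM cell 23) stayed so. Crem, which acts on cyclic AMP response elements, stood at 138.97 CPM in the AGM, 31.1 in the yolk sac and 8.14 in the E12.5 liver. It was read in 35 of 48, 7 of 16 and 3 of 16 cells. Creb1, of the same list, stood at 31.9 CPM in the AGM, 32.2 in the yolk sac and 20.3 in the E12.5 liver. Socs3, a feedback inhibitor of STAT3 signalling, stood at 20.4 CPM in the AGM and 0 in the E12.5 liver, at least 130-fold lower against the floor. Nfkb1, a subunit of NF-κB, went the other way, at 72.7 CPM in the AGM, 158.7 in the yolk sac and 183.2 in the E12.5 liver. At E14.5, 6 of 18 were lower than at E12.5 (33.3%, against 18.2% of all genes) and 0 higher (18.7%), and 3 of the 6 (Il6ra, Nfkbiz and Trib1) were no longer lower by 2-fold when 1 E12.5 cell (cell 16, 15 or 3) was left out.

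Of the genes of the amino acid response, the setting in which C/EBPγ and ATF4 act, 4 of 17 were higher (23.5%, against 8.61% of all genes) and 4 lower (23.5%, against 21%) in the yolk sac than in the AGM. With any 1 cell left out 3 of the higher and 1 of the lower stayed past 2-fold; the others were at -0.64 (Slc7a11, without yolk sac cell 7), -0.79 (Chac1, without AGM cell 38), -0.57 (Cth, without AGM cell 35) and -0.64 (Vldlr, without AGM cell 14). Psat1, an enzyme of serine synthesis, stood at 105.5 CPM in the AGM and 276.2 in the yolk sac, and Slc7a5, an amino acid transporter, at 3.67 and 21.2 CPM. Nupr1, a stress-induced chromatin protein, stood at 102.4, 12.9 and 0 CPM in the AGM, yolk sac and E12.5 liver. Of the 17 genes, 8 were lower in the E12.5 liver than in the AGM (47.1%, against 26% of all genes) and 1 higher (Trib3; 5.88%, against 15.6%), with a median of -0.91. Only 4 of the 8 stayed lower by 2-fold with any 1 cell left out (Sesn2 was under it without AGM cell 38, Slc7a11 without cell 16, Gpt2 without cell 37 and Vldlr without cell 14), and Trib3 was at -2.65 without E12.5 cell 7. At E14.5 2 were higher (11.8%, against 18.7%) and 2 lower (11.8%, against 18.2%) than at E12.5, where Trib3 was at -0.29 without E12.5 cell 7. Asns, asparagine synthetase, stood at 51.0 CPM at E12.5 and 244.2 at E14.5, or 146.8 at E14.5 without the 5 cells that stood apart.

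Acute-phase and inflammatory targets were at low levels throughout, at 92.1 CPM in sum in the AGM, 71.6 in the yolk sac, 2.52 in the E12.5 liver and 0.243 in the E14.5 liver. In the yolk sac 2 of 9 were lower than in the AGM (Hp and Tnfaip6; 22.2%, against 21% of all genes) and 1 higher (Fgl2; 11.1%, against 8.61%), shares near those of all genes. All Hp reads came from AGM cell 37, and Fgl2 was at 0.22 without yolk sac cell 3. Against the AGM, the E12.5 liver had 6 lower (66.7%, against 26%) and 1 higher (Fgl2; 11.1%, against 15.6%). With 1 cell left out Cxcl1 was at -0.70 (AGM cell 36), Ptx3 at -0.94 (AGM cell 3), Hp at 0 (AGM cell 37) and Fgl2 at 0.25 (E12.5 cell 2), so 3 of the 6 stayed lower. Between the livers 1 was lower (Fgl2, at -0.55 without E12.5 cell 2; 18.2% of all genes) and 0 were higher (18.7%), and 8 of the 9 genes were at 0 in at least 1 of the groups. Tnfaip6, a hyaluronan-binding protein of inflamed tissue, stood at 17.1 CPM in the AGM, in 13 of 48 cells, and was read in 1 yolk sac cell and in 0 E12.5 liver cells. Ptgs2, cyclooxygenase 2, stood at 14.3 CPM in the AGM, 22.1 in the yolk sac and 0 in both liver groups.

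The last of the lists held genes that C/EBPs are known to drive in myeloid cells. In the yolk sac 2 of 11 were higher than in the AGM (Csf3r and Mpo; 18.2%, against 8.61% of all genes) and 2 lower (Gfi1 and Ms4a3; 18.2%, against 21%), with a median of -0.02. Mpo was at 0.89 without yolk sac cell 16. In the E12.5 liver 4 were higher (Csf3r, Csf2ra, Gfi1 and Prtn3; 36.4%, against 15.6% of all genes) and 2 lower (Csf2rb and Ltf; 18.2%, against 26%), with a median of 0.79, or 0.07 without E12.5 cell 8. Single cells of the E12.5 liver brought 3 of the 4 under 2-fold when left out, Gfi1 to a log2 ratio of 0.83 (cell 15), Csf2ra to 0.52 (cell 10) and Prtn3 to 0.85 (cell 16), and Csf2rb was at -0.29 without AGM cell 11. Csf3r, the G-CSF receptor, stood at 23.2 CPM in the AGM, 64.2 in the yolk sac and 162.1 in the E12.5 liver, where 54.4% of the reads came from 1 cell. Mpo, myeloperoxidase, stood at 167.4, 358.9, 290.6 and 806.7 CPM from the AGM to the E14.5 liver. Spi1, the gene of the partner factor PU.1, was read in 47 of 48, 16 of 16, 14 of 16 and 16 of 16 cells. At E14.5 3 were higher (27.3%, against 18.7%) and 3 lower (27.3%, against 18.2%) than at E12.5. None of the 3 lower (Csf3r, Csf1r and Csf2ra) stayed so with any 1 cell left out (E12.5 cells 7, 8 and 10), and Csf2rb, 1 of the 3 higher, was at 0.35 without E14.5 cell 8. S100a8, S100a9, Lcn2, Camp, Ngp, Ctsg, Fcnb and Mmp8 were not analysed here.

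Markers of other cell types were set beside these values. Of 10 macrophage genes, the list summed to 102.7 CPM in the AGM, 74.0 in the yolk sac, 496.9 in the E12.5 liver and 224.6 in the E14.5 liver, with Adgre1 and Cx3cr1 at 0 in the AGM and the E12.5 liver. Without E12.5 cell 8 the E12.5 sum was 147.3 CPM, and without the 4 erythroid-high cells the E14.5 sum was 281.2 CPM, so the order of the livers turned. Granulocyte and mast cell genes, 5 of them, summed to 403.0, 594.1, 756.6 and 1076 CPM, with Elane at 0 in all groups but the E12.5 liver. Nearly all of each sum was Mpo and Prtn3, which stood at 806.7 and 264.9 CPM in the E14.5 liver. Endothelial genes summed to 2218, 1252, 1694 and 1278 CPM, and 6 of 10 (60%) were at least 2-fold lower than in the AGM in the yolk sac (21% of all genes) and 6 of 10 in the E12.5 liver (26%). Esam was at -0.91 in the yolk sac and Tek at -0.94 in the E12.5 liver without AGM cell 3. Mesenchymal genes summed to 161.2, 85.5, 32.3 and 65.3 CPM, and hepatocyte genes to 257.5, 208.5, 108.6 and 96.4 CPM, with Hnf4a at 0 in all but the E12.5 liver. Erythroid genes summed to 26.5, 46.5, 448.4 and 24055 CPM, the last of which was 98.5 CPM without the 4 erythroid-high cells. Most of the endothelial list and Cebpb were thus both lower in the yolk sac and the E12.5 liver than in the AGM, and the part of endothelial signal in the Cebpb values was not tested.

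Across the 48 AGM cells, the genes whose level ranked most like Cebpb, out of 8399 that were read in at least 20% of the cells, were Nop53 (Spearman's rho 0.64), Nr4a2 (0.59), Smim3 (0.56), Cyba (0.51) and Tagln2 (0.50). Nr4a2 had rank 1 over all 96 cells, at 0.61, followed by Skil (0.59), Srsf2 (0.56), Hes1 (0.54) and Ppp1r14b (0.53). Nr4a1 (0.49) and Jund (0.48), both on the immediate-early list, had ranks 8 and 11 in the AGM. Others of that list, where read widely enough, ran from 0.31 (Egr1) to -0.18 (Klf2), with Ier5, Zfp36 and Maff also below 0. The rho of Cebpb with the number of immediate-early genes read in a cell was 0.20. Fos and Jun, of the bZIP list, were at 0.02 and 0.09. Cebpb ranked with neither Cebpd (0.14) nor Cebpg (-0.04), and Cebpd and Cebpg were at 0.21. For Cebpd the nearest genes were Sik2 (0.59) and Ccdc69 (0.54), and for Cebpg Spice1 (0.62) and Map3k4 (0.60). The rho with the number of genes read per cell was 0.55 for Cebpg and -0.11 for Cebpb. Library depth and preparation can enter these values, and those of the AGM describe the cells of 1 sample. The nearest genes are the highest of 8399 values over 48 cells. Picking the highest gives large values among unrelated genes too, and how large was not tested. The values over all 96 cells span the 4 groups. Differences between groups, on which the family was chosen, therefore enter them.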

How the data were processed

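RNA of 96 single cells was measured by full-length cDNA sequencing (SMART-Seq kit, transposome libraries, per the labels' protocols). The deposited values are raw read counts, not normalized by the authors, with genes in rows and cells in columns. The submitters' processing notes name FastQC, Trimmomatic 0.36, STAR, HTSeq and the build mm10; the annotation release and strand setting are not given in the sources used here. The members and gene lists were chosen with earlier results of these data known.

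Rows sharing a symbol (113 of 19949) were summed. No cell was removed (minimum 1000 genes). Reads were summed per group, at 19053123 to 60280645 reads, and scaled to CPM; ratios are log2 of CPM + 1, called at 2-fold among 15239 genes with at least 30 reads, a scale that understates differences of low genes. Shares have exact Clopper-Pearson and pooled CPM exact Poisson 95% intervals, for counting error only; the limit for 0 is 3 cells or 3 reads. Without replicate samples no test was made. Named list genes were at most 3 per list and comparison by size of ratio, with at most 50% of reads from 1 cell. The nearest 5 genes by rank correlation were also named. Cebpz, Atf4, Ddit3, Creb1, Csf3r, Mpo, Spi1, Nfkb1 and the gate genes were named besides. A simulation with known changes checked the scripts (Python 3.11.15, pandas 2.3.3, SciPy 1.17.1). Cebpz was taken out of the bZIP list after its values were seen. Alternatives changed the added CPM, depth, scaling, read minimum and cells used.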

Additional observations from a re-analysis of the deposited data

How the results depend on the processing

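Each comparison rests on 1 sample per group, so the spread between embryos is unknown, and depth limits what can be said of Cebpa and Cebpe. Cebpb kept its direction and stayed past 2-fold against the AGM under every alternative run and with any 1 cell left out, with log2 ratios from -3.25 to -2.61 in the yolk sac and from -3.43 to -2.89 in the E12.5 liver over the alternatives. The count of members at least 2-fold lower was 1 in the yolk sac and 1 in the E12.5 liver, and became 2 in both under the mean CPM of the cells, with cells thinned to 690000 reads, with 0.1 CPM added, and against AGM cells 17 to 48; the added gene was Cebpe, whose reads all lie in the AGM, so that its direction was fixed by the minimum on reads. It was 1 to 1 in both with any 1 cell left out. The count higher in the E12.5 liver was 1, and became 0 under the mean CPM of the cells, with 10 CPM added or against AGM cells 1 to 16, and 2 without the deepest cells or against AGM cells 17 to 48, with a range of 0 to 2 over single cells left out (0 without E12.5 cell 7, 11 or 15). Between the livers the count lower at E14.5 was 2, and became 1 with 10 CPM added and 1 without E12.5 cell 8 and E14.5 cells 3, 8, 13 and 16 (chosen after seeing the data), with a range of 0 to 2 over single cells. The count higher was 0, and became 1 without those 5 cells (Cebpb), with a range of 0 to 1. With 10 CPM added, several list medians against the AGM moved by over 1.5 times. The acute-phase and inflammatory median moved from -0.37 to -0.08 in the yolk sac and from -1.32 to -0.20 in the E12.5 liver. Upstream regulators were then at -0.33 in the yolk sac and -0.29 in the E12.5 liver, and the 9 bZIP partners at -0.22 and -0.49. The amino acid response was at -0.30 in the E12.5 liver and the immediate-early genes at -0.27 in the yolk sac. Medians of all genes were then -0.08 in the yolk sac and -0.07 in the E12.5 liver. Median-of-ratios scaling moved the median of all genes by 0.10 in the yolk sac comparison and left Cebpb at -2.82. With no minimum on reads, 22.9%, 32.2% and 28.6% of genes were past 2-fold in the 3 comparisons, against 29.6%, 41.7% and 36.9%. No paired analysis was possible because cells carry numbers that the labels tie to no animal or batch, and no test was made. The cause of these shifts was not tested.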
